A study of Oncorhynchus mykiss with 24 samples.

Results

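Genes of the Rab, Arf and Sec vesicle traffic families were followed in early embryos of a hybrid between Oncorhynchus mykiss (rainbow trout), which gave the eggs, and Salvelinus fontinalis (brook trout), which gave the sperm. Members were taken by symbol: Rab and sorting nexin (snx) genes with a number, arf1 to arf6, sar1, the COPI coat genes copa, copb, cope, copg and copz, and the sec genes from sec11 to sec63. The symbol was the identifier itself or, for an identifier without a name, that of its zebrafish (Danio rerio) ortholog in the deposited ortholog table. This gave 255 of the 32765 genes in the count table, of which 161 of 22773 were O. mykiss genes (the egg's species) and 94 of 9992 were S. fontinalis genes (the sperm's species). They carried 108 and 64 symbols in the O. mykiss and the S. fontinalis genes. 1 O. mykiss and 3 S. fontinalis members map to 2 zebrafish symbols and are counted under the first. All 255 passed the filter on low counts and were tested.

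RNA was measured by TOMO-seq, in which a sample is cut along an axis and the RNA of each piece is sequenced on its own. Each egg or embryo was cut into an animal section (A), where the cells form, and a vegetal section (B), with most of the yolk. Samples were taken at fertilization (0 hpf, hours post fertilization), in early cleavage (1 hpf), at 1 day post fertilization (1 dpf), an early blastula of about 32 to 64 cells, and at 3 dpf, a mid-blastula of about 1000 cells. All groups are the same hybrid cross, and none was treated. For 0 hpf the labels disagree on whether the egg was fertilized. Each section had 2 libraries for 0 hpf and for 3 dpf and 3 libraries for the stages between, labelled as biological replicates.

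Membrane traffic moves proteins and lipids between the compartments of a cell in coated vesicles and tubules. The COPII coat, started by the GTPase Sar1, buds vesicles from the endoplasmic reticulum (ER), and the COPI coat, recruited by Arf1, carries material back from the Golgi. Rab GTPases mark single compartments and recruit motors and tethers to them, sorting nexins sort cargo on endosomes, and the Sec61 translocon threads new secretory and membrane proteins into the ER. In a fish egg these RNAs are supplied by the mother, and transcription of the embryo's own genome starts in the blastula.

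Library totals ran from 5011274 to 9986001 counts. The O. mykiss members took 0.792% to 0.858% of all O. mykiss counts in section A at 3 dpf and 0.880% to 1.13% in the other libraries. The vegetal RNAs dazl, grip2b, sybu, trim36, hwa and buc (12 gene copies) had summed levels of 637 to 1200 CPM (normalised read counts scaled to library size) in all section A libraries and 3040 to 8360 CPM in all section B libraries, so the section labels held in every library. S. fontinalis identifiers took 22.4% and 24.0% of all counts in the 2 section A libraries at 3 dpf, and 0.927% to 1.08% in the other 18 libraries. Between A and B at 3 dpf, and in A between 3 dpf and 1 dpf, the median log2 fold change of all O. mykiss genes was -0.33 with scaling factors from both species and -0.01 with factors from O. mykiss genes alone. Log2 fold changes are given with the first factors, and the value with O. mykiss factors stands beside some of them. Fold changes that involve section A at 3 dpf lie higher with O. mykiss factors, also where no second value is given. Sections are bulk samples, so fewer cells or less cytoplasm of a kind and less RNA of a gene per cell cannot be told apart. Of the marker lists for other cells, 1 of 8 follicle cell symbols (fshr, 0 to 5.94 CPM), 0 of 8 blood symbols and 1 of 6 sperm symbols (spata18, 2.23 to 13.3 CPM) were in the table.

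The traffic genes differed between the sections in opposite directions by family. From 1 hpf on, many coat subunits were higher in the animal section, and at all 4 stages most Rab GTPases that differed were higher in the vegetal section. A gene was called where the adjusted p of edgeR's quasi-likelihood test, taken over all 32502 genes tested, was under 0.05. At 0 hpf 4 O. mykiss members were higher in A and 23 were lower, which is 16.8% of the 161 members against 5.41% of all O. mykiss genes. At 1 hpf 32 were higher and 40 lower (44.7%, against 24.3% of all O. mykiss genes). At 1 dpf 37 were higher and 45 lower (50.9%, against 28.1%), and at 3 dpf 25 were higher and 70 lower (59.0%, against 42.3%).

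The members are more abundant than most genes, and abundant genes were called more often. Among genes with a mean level at or above the median of all tested genes (log2 CPM 2.97), 27 of 142 members were called at 0 hpf (19.0%, against 7.77% of such O. mykiss genes). The same comparison gave 71 of 142 at 1 hpf (50.0%, against 33.0%), 81 at 1 dpf (57.0%, against 37.4%) and 89 at 3 dpf (62.7%, against 50.5%). With O. mykiss factors the split at 3 dpf was 39 higher and 59 lower. The count at 0 hpf rests on few libraries: it was 6 without replicate 1 of section A, 11 without replicate 1 of section B, and 43 (11 higher, 32 lower) in the fit that pairs the 2 sections of each egg.

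The calls of the first 3 stages overlapped, and the contrasts of different stages share no library. The same overlaps over all O. mykiss genes were not counted, so those below are not read as a trait of the members. All 27 members called at 0 hpf were called in the same direction at 1 hpf and at 1 dpf, which is 37.5% of the 72 called at 1 hpf and 32.9% of the 82 called at 1 dpf. Of the 82 members called at 1 dpf, 68 (82.9%) were called at 1 hpf (94.4% of its 72), all in the same direction. Of the 95 members called at 3 dpf, 23 (24.2%) were called at 0 hpf, 53 (55.8%) at 1 hpf and 57 (60.0%) at 1 dpf, which is 85.2%, 73.6% and 69.5% of the calls of those stages. In all, 23 members were called at each of the 4 stages, 122 at 1 stage or more, and 39 at none. The 23 were sec31a, which was higher in A at each stage, and 22 that were lower in A at each stage. Of those 22, 18 were Rab GTPases, and the other 4 were sec22a, sec22bb, snx16 and snx21.

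**Figure D1:**
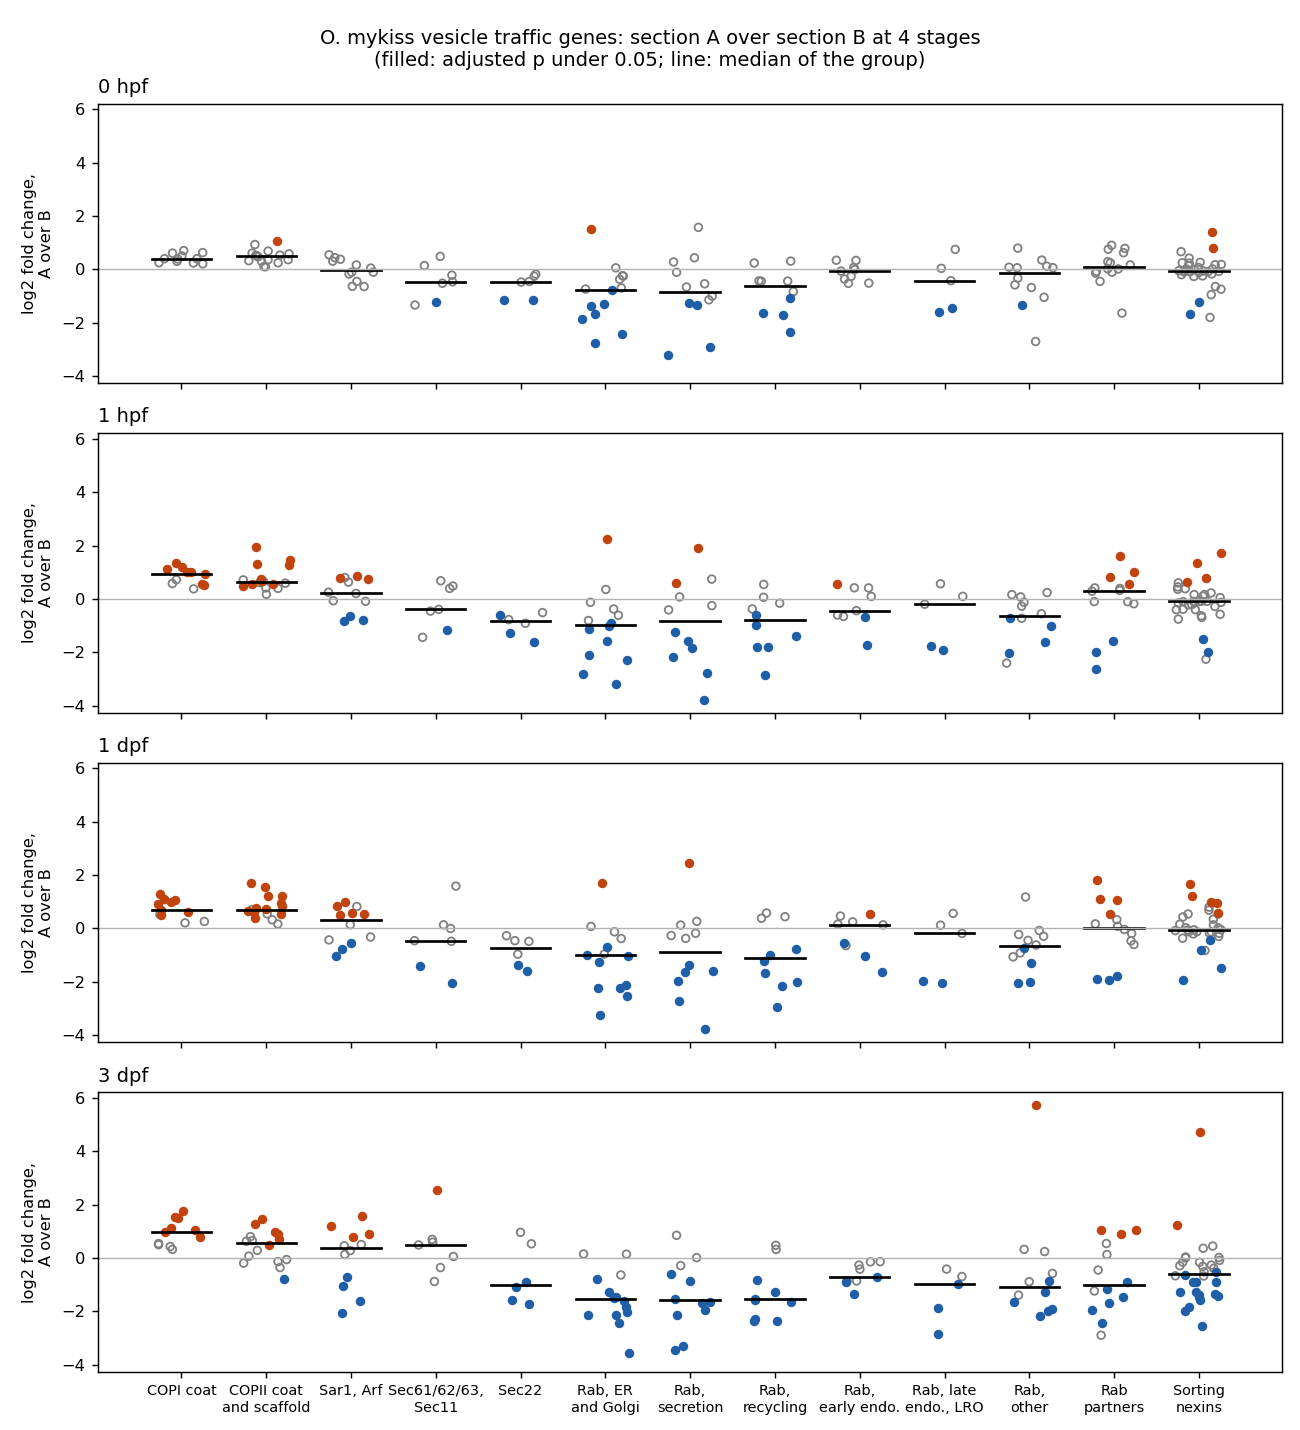
Log2 fold change of section A over section B (vertical axis) for each O. mykiss member, grouped by role (horizontal axis), with a panel per stage; filled points passed the edgeR test (orange higher in A, blue lower in A), open points did not, and short lines are group medians. COPI and COPII subunits lie mostly above 0 and Rab GTPases of the Golgi, of secretion and of recycling mostly below it; LRO stands for lysosome-related organelles, and an snx33 copy with no count in section B at 3 dpf is not drawn.

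Subunits of the COPI and COPII coats were the most uniform family. All 24 coat genes had log2 fold changes of A over B above 0 at 0 hpf, 1 hpf and 1 dpf, and 22 of 24 did at 3 dpf. At the 4 stages in order 1, 16, 19 and 13 were higher in A (19 at 3 dpf with O. mykiss factors), and 0 of 24 were lower at any stage. Their median log2 fold change was 0.48, 0.71, 0.75 and 0.75, against -0.07, -0.10, -0.08 and -0.58 over all 161 members. The counts moved with single libraries: 10 were higher at 1 hpf without B replicate 1, 12, 10 and 11 at 1 dpf without A replicate 3, B replicate 1 and B replicate 2, and 5 at 3 dpf without B replicate 1. Over all O. mykiss genes the median was -0.02, -0.03, -0.01 and -0.33 at the 4 stages in order. Of the 22724 tested, 329, 2848, 3250 and 3461 were higher in A (4744 at 3 dpf with O. mykiss factors). Called either way were 5.41%, 24.3%, 28.1% and 42.3%. At 0 hpf the 1 coat gene called is near that share and is not read as a result about the family.

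Among the 13 COPII subunits, sec31a and sec13, which together build the outer cage of the coat, had the largest differences at 0 hpf and 1 dpf. In section A, sec31a had 272 and 254.5 CPM at 0 hpf, 278, 245 and 295 at 1 hpf, 275, 248 and 295 at 1 dpf, and 282 and 298 at 3 dpf. In section B it had 93.0 and 156 CPM at 0 hpf, 76.6, 130.3 and 127 at 1 hpf, 79.1, 81.3 and 117 at 1 dpf, and 91.8 and 148 at 3 dpf. Every section A library lay above every section B library. With the factors from both species, on which the values in A at 3 dpf depend, the level in A ran from 245 to 298 CPM. The log2 fold changes were 1.08 ± 0.28 (SE, adjusted p = 0.0367), 1.29 ± 0.23 (0.000551), 1.56 ± 0.23 (9.32e-05) and 1.27 ± 0.29 (0.00132) at the 4 stages in order.

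The level of sec13 in A was 31.1 and 25.4 CPM at 0 hpf, 25.7, 23.5 and 17.8 at 1 hpf, 27.3, 18.8 and 29.8 at 1 dpf, and 20.8 and 17.4 at 3 dpf. In B it was 11.3 and 18.3 CPM at 0 hpf, 4.41, 5.91 and 6.82 at 1 hpf, 5.22, 4.76 and 13.2 at 1 dpf, and 5.10 and 8.83 at 3 dpf. The sections overlapped at no stage, but the difference at 0 hpf missed the threshold (log2 0.93 ± 0.43, adjusted p = 0.356). It was 1.96 ± 0.36 at 1 hpf (0.000754), 1.70 ± 0.36 at 1 dpf (0.00207) and 1.45 ± 0.45 at 3 dpf (0.0107). Smaller differences were those of sec24 genes, whose products select cargo: sec24a (LOC110537723) had log2 0.41 at 1 hpf and -0.36 at 3 dpf, and sec24d (LOC110500610) had 0.85 at 1 dpf and -0.06 at 3 dpf. Of the 13 COPII subunits, 1, 8, 11 and 6 were higher in A at the 4 stages in order.

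Of the 11 COPI subunits, 0, 8, 8 and 7 were higher in A, and all 11 at 3 dpf with O. mykiss factors. The copa copy LOC110530568, for the alpha subunit that binds retrieval signals on cargo, had 186, 169 and 189 CPM in A at 1 hpf, against 86.6, 74.3 and 75.04 CPM in B. At 1 dpf it had 210.0, 164 and 231 CPM in A, against 80.2, 77.2 and 86.4 CPM in B. The sections were well apart in both stages (log2 1.21 ± 0.16, adjusted p = 2.53e-05, and 1.31 ± 0.16, 1.04e-05), and at 3 dpf the difference was 1.05 ± 0.19 (0.000271). At 3 dpf the largest coat differences were in copb2 (beta prime subunit, 1.75 ± 0.27, adjusted p = 5.46e-05), cope (epsilon subunit, 1.55 ± 0.39, 0.00294) and copz1 LOC110492004 (zeta subunit, 1.52). The smallest in COPI were those of copb1 LOC110506678, a beta subunit, at 0 hpf (0.20), of copg2, a gamma subunit, at 1 hpf and 1 dpf (0.37 and 0.21), and of the copy named copb1 at 3 dpf (0.32), none of which passed the test.

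The GTPases that start the coats were less uniform. Their counts are to be read against the shares of all O. mykiss genes called (5.41%, 24.3%, 28.1% and 42.3% at the 4 stages). Of 10 arf genes, 0 were called at 0 hpf, 3 were higher and 3 lower in A at 1 hpf, 5 higher and 3 lower at 1 dpf, and 3 higher and 4 lower at 3 dpf (6 higher and 3 lower with O. mykiss factors). The genes split by name only in part. On the higher side were arf1, which recruits COPI at the Golgi, and copies of arf3a, a close relative of arf1. At 1 dpf arf4a LOC110496007 lay higher in A as well, unlike arf4. The lower ones were arf4 and copies of arf6b, whose product works at the plasma membrane and on recycling endosomes. At 3 dpf arf1 had a log2 fold change of 1.59 ± 0.44 (adjusted p = 0.00498), the highest of the 10, and arf6b LOC110505580 had -2.07 ± 0.25 (4.99e-06), the lowest. That arf6b copy had 21.9 and 23.5 CPM in A at 3 dpf, against 105 and 86.1 CPM in B. The libraries of the sections were far apart, and the other arf6b copies were lower in A at 3 dpf too, at -1.60 (LOC110522469) and -1.05 (LOC110497884). The 2 sar1 genes, which start COPII coats, were not called at the first 3 stages, and sar1b LOC110537724 was higher in A at 3 dpf (0.80 ± 0.29, 0.0238).

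Rab GTPases ran the other way. Of the 62 Rab GTPase genes, 18 were lower in A at 0 hpf and 1 was higher. At 1 hpf 28 were lower and 4 higher, at 1 dpf 31 and 3, and at 3 dpf 40 and 1 (33 and 1 with O. mykiss factors). Their median log2 fold change was -0.48, -0.64, -0.75 and -1.27 (-0.95 with O. mykiss factors) at the 4 stages in order. The number called at 0 hpf, 19 in all, was 5 without A replicate 1 and 9 without B replicate 1. Over all O. mykiss genes 5.41%, 24.3%, 28.1% and 42.3% were called at the 4 stages in order.

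The lower Rabs were counted by compartment, to be read against all O. mykiss genes. Of the 22724 tested, 901, 2679, 3141 and 6161 were lower in A at the 4 stages in order (4179 at 3 dpf with O. mykiss factors). Among 14 Rabs of the ER and Golgi, 7, 8, 9 and 11 were lower in A at the 4 stages in order. The counts were 4, 6, 6 and 9 of 12 for Rabs of secretory vesicles, and 4, 6, 7 and 8 of 10 for Rabs of recycling endosomes. Rabs of early endosomes had fewer, with 0, 2, 3 and 3 of 9, and those of late endosomes had 1, 1, 1 and 2 of 4. The early and late groups are small, and nothing is read from their counts. The difference between the compartments was not tested. The Rab of lysosome-related organelles, rab32a (LOC110522381), was lower at all 4 stages, by -1.44 to -2.05.

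The largest difference towards B at 0 hpf, 1 hpf and 1 dpf was that of rab3a, which drives regulated exocytosis of secretory vesicles and, in mouse eggs, of cortical granules. It had 3.27 and 9.03 CPM in A at 0 hpf, 9.87, 6.37 and 4.55 at 1 hpf, 8.59, 14.3 and 7.42 at 1 dpf, and 16.0 and 5.46 at 3 dpf. In B it had 64.4 and 49.1 CPM at 0 hpf, 116, 89.0 and 80.2 at 1 hpf, 178, 146 and 96.0 at 1 dpf, and 130.3 and 83.6 at 3 dpf. All section B libraries lay well above all section A libraries. The log2 fold changes were -3.20 ± 0.51 (adjusted p = 0.000823), -3.78 ± 0.42 (4.63e-06), -3.79 ± 0.42 (4.12e-06) and -3.31 ± 0.51 (5.8e-05). Its relative rab3db differed by -2.90, -2.76, -2.70 and -3.47 at the 4 stages.

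Of the Golgi Rabs, rab6a, which guides vesicles out of the Golgi and back to the ER, followed at these 3 stages. The copy named rab6a had 6.95 and 21.4 CPM in A at 0 hpf, 15.7, 18.7 and 12.1 at 1 hpf, 22.0, 27.6 and 14.2 at 1 dpf, and 37.5 and 22.5 at 3 dpf. In B it had 109.8 and 80.3 CPM at 0 hpf, 171, 127 and 131 at 1 hpf, 204, 248 and 149 at 1 dpf, and 186 and 143 at 3 dpf. The sections did not overlap, with log2 fold changes of -2.75, -3.20, -3.23 and -2.45 (SE 0.35 to 0.42, highest adjusted p = 0.00063). The other copy, LOC110533791, was lower in A at all 4 stages too, by smaller amounts (-1.31, -1.04, -1.27 and -1.84). Further Golgi and ER Rabs with steep gradients were rab18a (-1.85 to -2.28), a Rab of the ER and lipid droplets, and rab1ba LOC110534137 (-1.60 to -2.12), which acts between ER and Golgi.

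Recycling Rabs followed. The copy named rab35b, for a Rab that returns endosomes to the plasma membrane, had 30.7, 34.5 and 28.9 CPM in A at 1 hpf, against 294, 206 and 179 CPM in B. At 3 dpf it had 72.0 and 53.3 CPM in A, against 397 and 249.7 CPM in B. The gap was wide at every stage, with log2 fold changes of -2.35, -2.85, -2.94 and -2.37 (SE 0.25 to 0.30, highest adjusted p = 0.000145). rab4b LOC110503498, of fast recycling, differed by -1.73 to -2.38, and rab11al LOC110514944, of the slow recycling endosome, by -1.54 to -2.18. Of 3 copies of rab7a, which marks late endosomes, LOC110494516 was lower in A at all stages (-1.62, -1.76, -1.96 and -2.84). LOC110494293 passed the test at 3 dpf (-0.96), with -0.43, -0.20 and -0.19 before, and LOC110527948 was called at none (0.03, 0.09, 0.12 and -0.69).

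**Figure D2:**
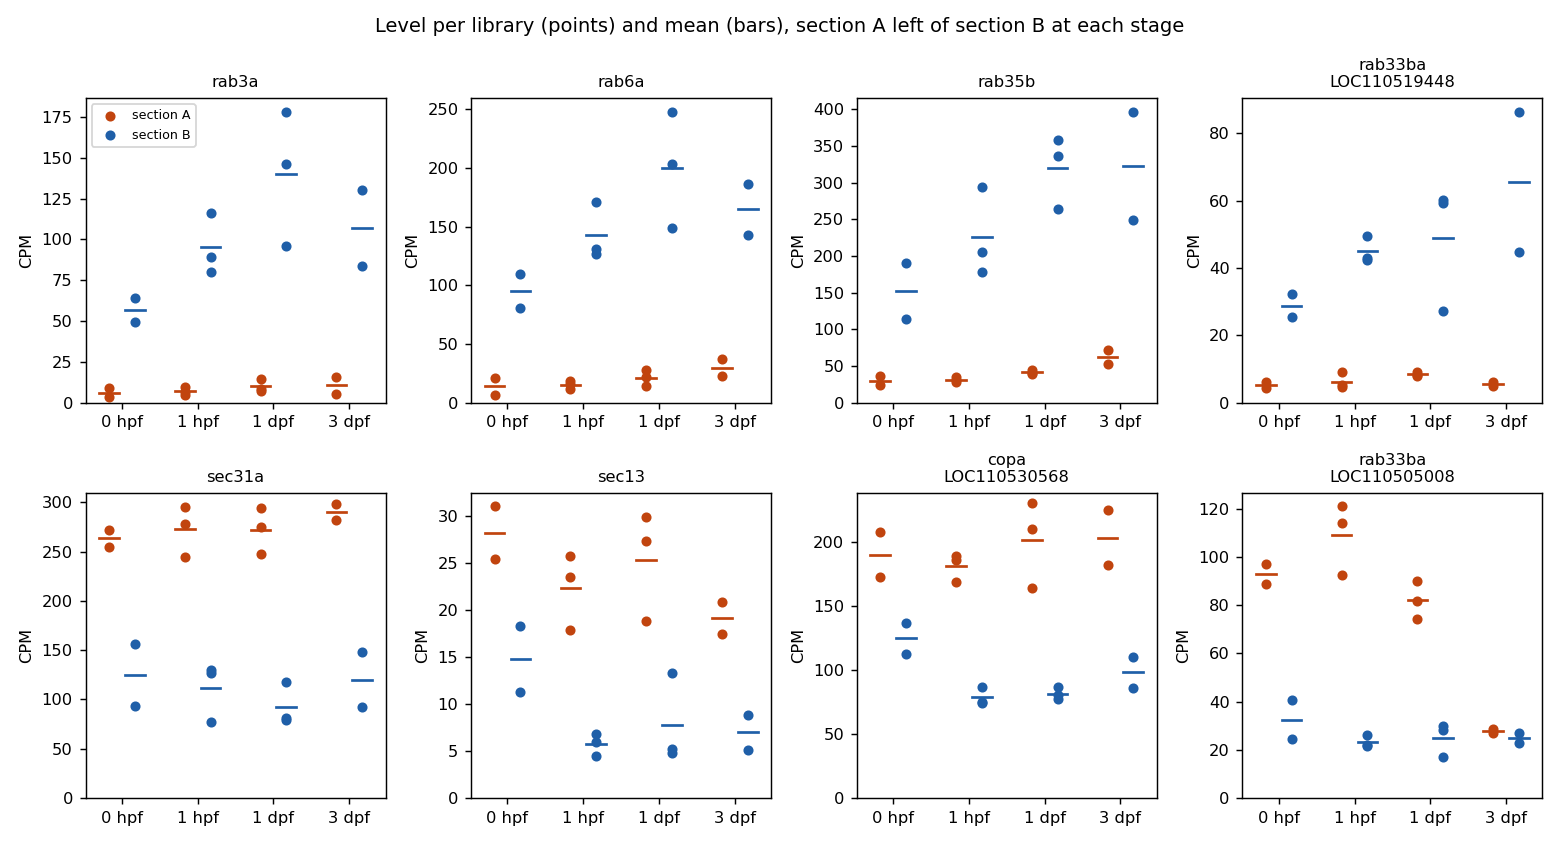
Levels in CPM (vertical axes, linear from 0) of 8 O. mykiss members in every library by stage (horizontal axes), section A in orange left of section B in blue. The vegetal Rabs rab3a, rab6a, rab35b and rab33ba LOC110519448 stand in the upper panels, and the animal sec31a, sec13, copa LOC110530568 and rab33ba LOC110505008 in the lower ones; the last loses its difference at 3 dpf.

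The Rab called higher in A at 0 hpf was a copy of rab33ba, a Golgi Rab that also acts in autophagy, and its other copy was called in the opposite direction. LOC110505008 had 88.8 and 97.3 CPM in A at 0 hpf, 92.4, 121 and 114 at 1 hpf, 81.9, 90.2 and 74.3 at 1 dpf, and 28.6 and 26.9 at 3 dpf. In B it had 24.4 and 40.5 CPM at 0 hpf, 26.1, 21.9 and 21.6 at 1 hpf, 16.8, 28.2 and 29.8 at 1 dpf, and 23.0 and 27.2 at 3 dpf. The sections were apart until 1 dpf and met at 3 dpf. Its log2 fold changes were 1.52 ± 0.26 (adjusted p = 0.00155), 2.24 ± 0.22 (9.48e-07), 1.71 ± 0.22 (1.51e-05) and 0.15 ± 0.27 (0.668).

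LOC110519448, the other rab33ba copy, had 4.39 and 6.16 CPM in A at 0 hpf, 5.16, 9.10 and 4.55 at 1 hpf, 8.16, 9.17 and 8.04 at 1 dpf, and 6.13 and 4.83 at 3 dpf. In B it had 32.1 and 25.5 CPM at 0 hpf, 49.5, 42.3 and 42.9 at 1 hpf, 60.3, 27.2 and 59.4 at 1 dpf, and 86.4 and 44.8 at 3 dpf. Its sections never overlapped, at -2.45 ± 0.41, -2.83 ± 0.33, -2.53 ± 0.33 and -3.57 ± 0.43 (highest adjusted p = 0.00125). The only other symbol with copies called in opposite directions was rab5c, of early endosomes, at 1 dpf: LOC110491689 had -1.03 ± 0.21 (0.00139) and the copy named rab5c 0.53 ± 0.15 (0.015), while LOC110486260 had 0.25 (0.356).

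In all, 44 O. mykiss symbols had more than 1 copy. At 1 dpf every copy was called for 18 of them, no copy for 9, and some copies for 17, and for 35 symbols all copies lay on the same side of 0. The same counts over all O. mykiss symbols with copies were not made, so nothing is read from these. How reads shared between near-identical copies were assigned is not given in the sources used here, so values of single copies are uncertain to that extent. The other Rabs called higher in A, chosen for mention after their values were seen, were rab3ab at 1 hpf and 1 dpf (1.91 and 2.46, at 1.96 to 6.56 CPM in A and 0.142 to 1.16 CPM in B), rab8a LOC110524213 at 1 hpf, and rab34a LOC110503908 at 3 dpf.

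Regulators and effectors named after a Rab (14 genes) were called in both directions. None was called at 0 hpf, 4 were higher and 3 lower at both 1 hpf and 1 dpf, and 3 were higher and 6 lower at 3 dpf. For these and the sec22 and translocon genes below, the shares of all O. mykiss genes called were 5.41%, 24.3%, 28.1% and 42.3%. Among Rab11 effectors, rab11fip1b was higher in A (1.62 ± 0.25 at 1 hpf and 1.81 ± 0.25 at 1 dpf), and rab11fip2 LOC110526440 was lower (-2.62 ± 0.39 at 1 hpf). Of 6 sec22 genes, a family named after a SNARE between ER and Golgi, 2, 3, 2 and 4 were lower in A and 0 higher. Of 6 translocon genes only sec63, a helper of the channel, was lower at the first 3 stages (-1.22, -1.16 and -1.39). At 3 dpf sec61b, the channel's beta subunit, was higher (2.56 ± 0.74, adjusted p = 0.00689), at 4.09 and 5.25 CPM in A and 0.547 and 0.999 CPM in B.

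The calls among sorting nexins varied with stage, as did those over all O. mykiss genes (5.41%, 24.3%, 28.1% and 42.3% called at the 4 stages in order). Of 33 genes, 2 were higher and 2 lower in A at 0 hpf, 4 and 2 at 1 hpf, 5 and 4 at 1 dpf, and 3 and 15 at 3 dpf (5 and 12 with O. mykiss factors). Over all O. mykiss genes 3461 were higher and 6161 lower at 3 dpf (4744 and 4179 with O. mykiss factors). At 0 hpf the calls were snx11 LOC110499128 (1.41) and snx4 LOC110501779 (0.79), which were higher, and snx16 (-1.22) and snx21 LOC110492619 (-1.66), which were lower. The last 2 stayed lower at every stage, and snx21 LOC110492619 reached -2.56 ± 0.28 at 3 dpf (adjusted p = 2.53e-06). The pairing fit at 1 hpf called 10 sorting nexins in place of 6.

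Between consecutive stages within a section, no member was called before 3 dpf. In A, 0 of 161 members were called for 1 hpf against 0 hpf (0.0% of all O. mykiss genes; 12 members at an unadjusted p under 0.05; 2 by DESeq2) and 0 for 1 dpf against 1 hpf (0.0%; 12; 0). In B, 0 were called for 1 hpf against 0 hpf (0.0044%; 34; 11), 0 for 1 dpf against 1 hpf (0.0%; 13; 0), and 0 for 3 dpf against 1 dpf (0.0%; 9; 0). Of the 22724 O. mykiss genes tested by edgeR, 2388, 1830, 3980, 1946 and 1366 had an unadjusted p under 0.05, in the order of these contrasts. The DESeq2 calls over all genes are not given here. In A, 59 members were called for 3 dpf against 1 dpf (36.6%, against 34.8% of all O. mykiss genes), 9 higher and 50 lower at 3 dpf. With O. mykiss factors the split was 27 higher and 23 lower, and the members' median was 0.01 in place of -0.31, so the direction of the whole set depends on the scaling and its share called is near the background.

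By family, Rab GTPases had 1 higher and 19 lower in A at 3 dpf against 1 dpf, and 8 higher and 10 lower with O. mykiss factors. The 20 calls fell to 12 without A replicate 2 of 3 dpf. Sorting nexins had 3 higher and 19 lower (4 and 9 with O. mykiss factors), and coats 1 and 3 (3 and 0). Translocon genes had 3 higher and 0 lower of 6 (5 and 0), and Rabs of late endosomes 0 and 3 of 4 under both scalings. Over all O. mykiss genes 34.8% were called, 2656 higher and 5262 lower (3899 and 2783 with O. mykiss factors). The 20 calls among 62 Rab GTPases are near that share and those among 24 coat genes below it. Neither is read as a result about the family.

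The difference between the sections itself changed between 1 dpf and 3 dpf for 34 of 161 members (21.1%, against 15.6% of all O. mykiss genes), 6 of which moved towards A and 28 towards B. With O. mykiss factors there were 20, of which 8 moved towards A and 12 towards B. Sorting nexins gave 12 of the 34 (2 and 10, among 33 genes) and Rab GTPases 11 (1 and 10, among 62 genes). The share of Rab GTPases is near that of all O. mykiss genes. This contrast shares its libraries with the section contrasts at 1 dpf and 3 dpf and with the stage contrast in A.

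**Figure D3:**
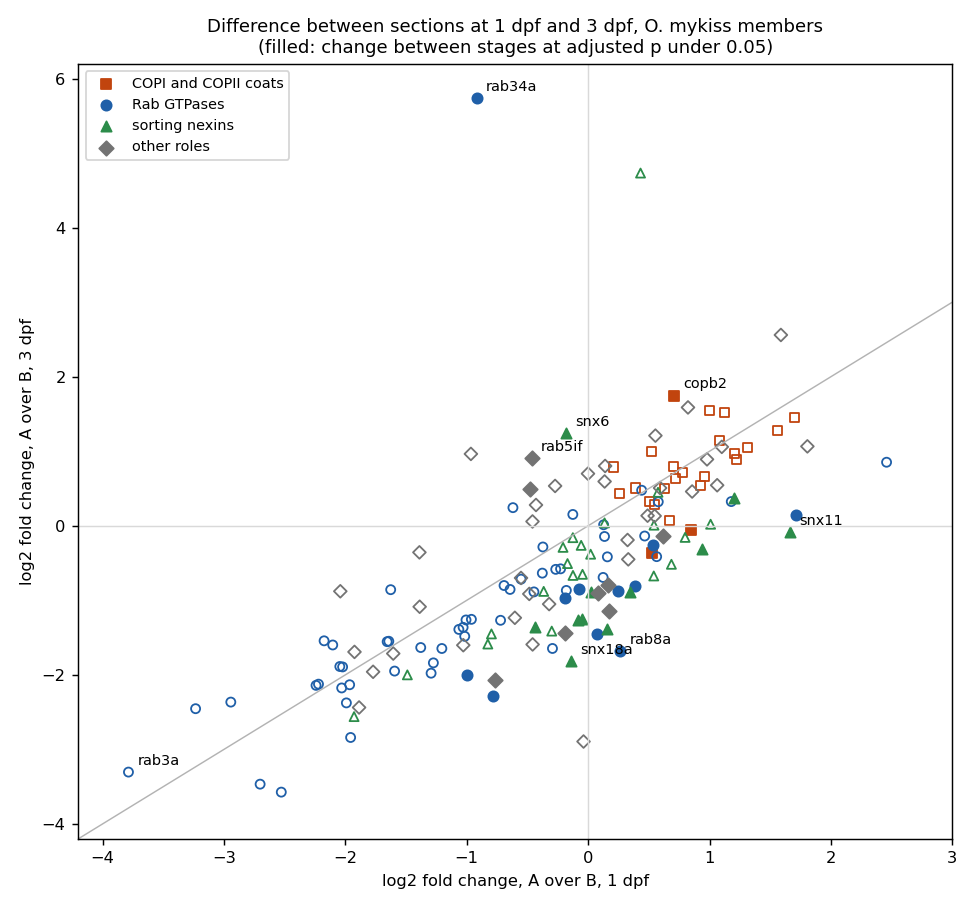
Log2 fold change of section A over section B at 1 dpf (horizontal axis) and at 3 dpf (vertical axis) for the O. mykiss members, with coats, Rab GTPases, sorting nexins and other roles marked. Filled symbols are members whose difference changed by the edgeR test, and the grey diagonal line marks equality. Most filled symbols lie below the line; the snx33 copy with no count in section B at 3 dpf is not drawn.

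Several members that had been even across the sections or higher in A had less RNA in A at 3 dpf. snx11 LOC110499128 had 115, 115.5 and 113 CPM in A at 1 dpf and 24.9 and 32.1 at 3 dpf, and in B 38.7, 32.5 and 37.6 CPM at 1 dpf and 28.1 and 32.3 at 3 dpf. Its excess in A was gone at 3 dpf: the difference between the sections was 1.66 ± 0.15 at 1 dpf and -0.09 ± 0.19 at 3 dpf. In A it fell by 2.01 ± 0.18 on the log2 scale (adjusted p = 3.09e-07; 1.70 with O. mykiss factors). rab33ba LOC110505008, described above, fell by 1.57 ± 0.25 in A (7.18e-05; 1.25).

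rab8a LOC110524213, of transport to the plasma membrane and cilium, turned round. It had 81.8, 142 and 112 CPM in A at 1 hpf, against 62.9, 79.0 and 81.3 CPM in B (0.59 ± 0.19, adjusted p = 0.037). At 3 dpf it had 33.6 and 26.7 CPM in A, against 103 and 89.8 CPM in B (-1.68 ± 0.25, 3.4e-05). It was the exception among the 53 members called at both 1 hpf and 3 dpf, of which 52 kept their direction. At 1 dpf its sections overlapped, with 69.7, 97.5 and 73.8 CPM in A and 68.4, 74.2 and 57.8 CPM in B.

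snx18a, an endocytic sorting nexin with a membrane-bending BAR domain, was even at 1 dpf, with 159, 150.5 and 144 CPM in A and 167, 169.8 and 163 CPM in B. At 3 dpf it had 53.3 and 49.9 CPM in A, against 211 and 153 CPM in B, a wide gap (-1.82 ± 0.18, adjusted p = 1.17e-06). The copy named snx5, a BAR sorting nexin that retrieves receptors from endosomes, had 68.0 and 53.1 CPM in A at 3 dpf, against 147 and 169 CPM in B (-1.38 ± 0.21). Within A the falls from 1 dpf were 1.55 for snx18a and 1.32 for snx5, and further falls by the naming rule were those of rab9a LOC110495812 (1.60 ± 0.32), a late endosome Rab, sec22ba LOC110530065 (1.37) and rab4a LOC110499272 (1.36). rab9a averaged 17.6 ± 4.47 CPM in A at 3 dpf (SD, n = 2) and 53.7 ± 8.63 CPM in A at 1 dpf (n = 3).

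Other members had more RNA in A at 3 dpf than at 1 dpf. rab5if, named for its interaction with Rab5, had 151.5 and 125.5 CPM in A at 3 dpf, against 61.6, 69.7 and 44.7 CPM in A at 1 dpf. In B it had 80.2 and 68.0 CPM at 3 dpf and 94.5, 89.4 and 59.1 CPM at 1 dpf. Its rise in A was 1.24 ± 0.23 (adjusted p = 0.000237; 1.56 with O. mykiss factors), and it was higher in A than in B at 3 dpf (0.90 ± 0.25, 0.00557) without being so at 1 dpf.

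Genes of the ER channel rose as well. sec61a1a LOC110528150, for the pore subunit, had 65.4 and 49.3 CPM in A at 3 dpf, against 27.4, 35.5 and 27.8 CPM in A at 1 dpf (0.92 ± 0.20, adjusted p = 0.000868). In B it had 44.8 and 36.8 CPM at 3 dpf and 35.2, 50.9 and 40.4 CPM at 1 dpf, which overlap. Its partners sec63 (0.73 ± 0.28, 0.037) and sec62 LOC110509043 (0.52 ± 0.21, 0.0468) rose in A as well, and the gamma subunit sec61g (0.98, 0.0832) passed only with O. mykiss factors (1.30). The median change of the 6 translocon genes in A was 0.77.

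Also higher in A at 3 dpf were copb2 and a copy of snx6, a partner of snx5. copb2 had 53.1 and 54.4 CPM in A at 3 dpf, against 25.9, 29.7 and 37.2 CPM in A at 1 dpf (0.79 ± 0.23, adjusted p = 0.00763). snx6 LOC110505779 had 27.1 and 23.9 CPM in A at 3 dpf, against 15.3, 15.9 and 13.5 CPM in A at 1 dpf (0.78 ± 0.25, 0.0155), and 9.66 and 11.8 CPM in B at 3 dpf. The other snx6 copy, LOC110497684, averaged 12.1 ± 2.02 CPM in A at 3 dpf (SD, n = 2) and 26.8 ± 5.28 CPM in A at 1 dpf (n = 3). It fell by 1.14 ± 0.41 on the log2 scale (0.026). The copies of snx6 thus moved in opposite directions with factors from both species, under which the median of all O. mykiss genes is -0.33. Whether the fall of LOC110497684 passes with O. mykiss factors is not given here.

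**Figure D4:**
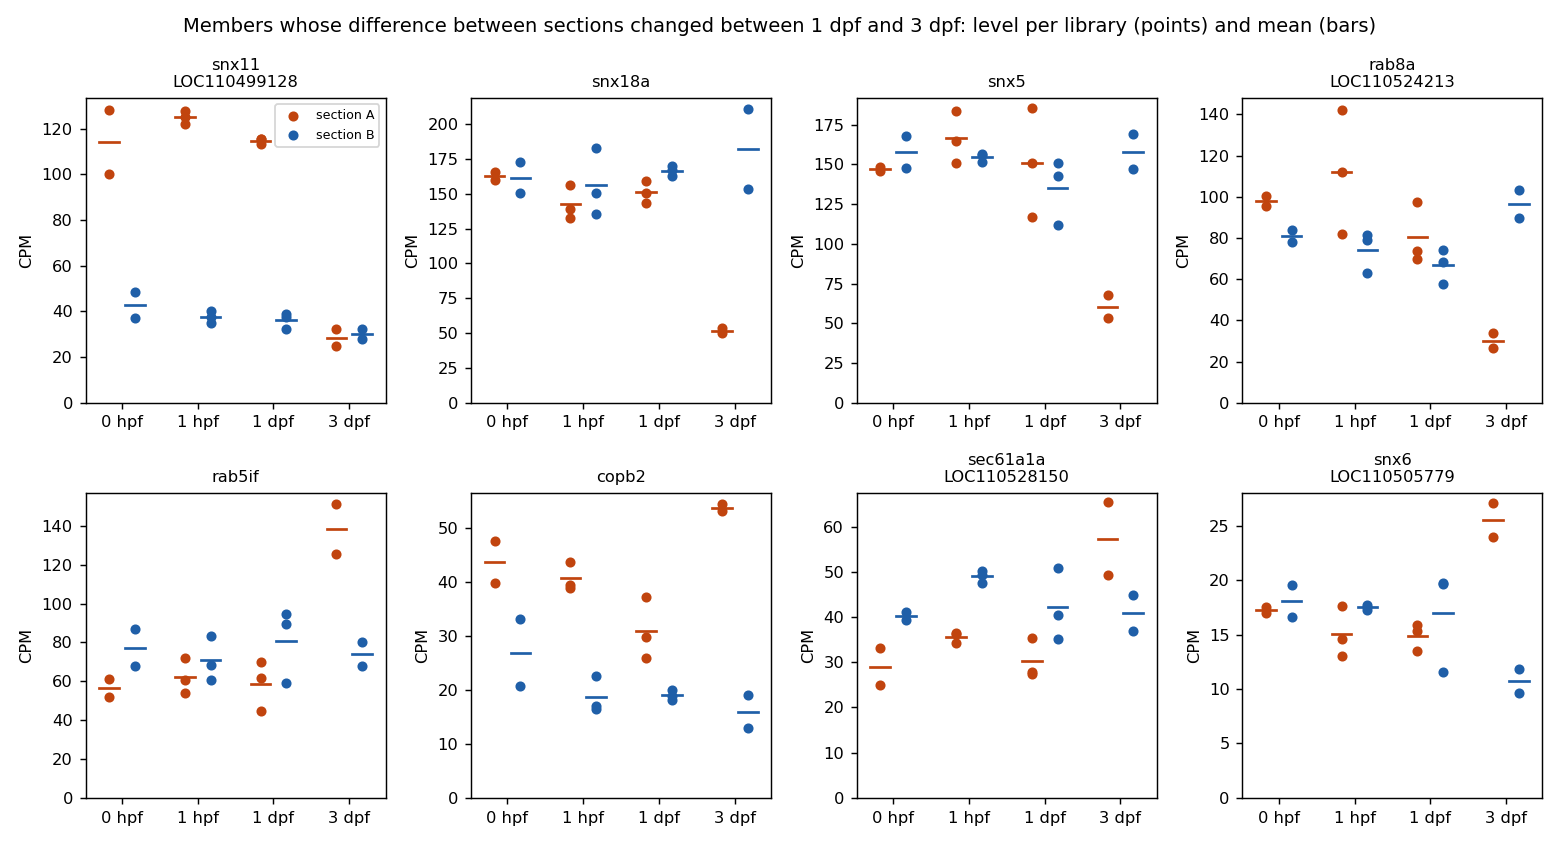
Levels in CPM (vertical axes, linear from 0) of 8 O. mykiss members in every library by stage (horizontal axes), section A in orange left of section B in blue. snx11 LOC110499128, snx18a, snx5 and rab8a LOC110524213 in the upper panels were lower in A at 3 dpf than at 1 dpf, and rab5if, copb2, sec61a1a LOC110528150 and snx6 LOC110505779 in the lower panels were higher.

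Members with few counts before 3 dpf, chosen for mention after their values were seen, were the snx33 copies and a copy of rab34a. The copy named snx33, for a BAR sorting nexin of endocytosis, had 38 and 12 counts in A at 3 dpf, 0 and 0 in B at 3 dpf, 0, 0 and 0 in A at 1 dpf, and 0 to 11 in the other libraries. Against a floor of 3 counts per library it was at least 9.15-fold higher in A than in B at 3 dpf, and at least 12.4-fold higher in A at 3 dpf than at 1 dpf. snx33 LOC110525320 had 48 and 29 counts in A at 3 dpf, 3 and 0 in B at 3 dpf, and 3, 0 and 0 in A at 1 dpf (3 dpf against 1 dpf in A 5.66 ± 1.47, adjusted p = 0.00357). rab34a LOC110503908, for a Rab of cilium formation, had 21 and 34 counts in A at 3 dpf and 1 and 0 in B (5.73 ± 1.32, 0.00161), with 0 to 8 counts in every earlier library. Every gene in the table reaches at least 31 counts in some library, and these copies reach that only in A at 3 dpf. Their differences at 3 dpf, with the fold bounds and adjusted p, were therefore set by that filter, and nothing is read from them. The same limit holds where these copies are counted among the calls at 3 dpf above.

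The S. fontinalis members are counts assigned to the father's species. In A at 3 dpf 92 of the 94 had a count in both libraries and 91 had at least 5 counts in both, with sums of 8909 and 6741 counts over all 94. In the other 18 libraries 42 to 62 of the 94 had a count, with sums of 579 to 1345. In A 81 of 94 were higher and 0 lower at 3 dpf than at 1 dpf (86.2%, against 89.1% of all S. fontinalis genes), and 74 were higher and 2 lower in A than in B at 3 dpf (80.9%, against 87.0%). These shares lie near the background. The table holds genes that reach at least 31 counts in some library, and 62 of the 94 reach that only in A at 3 dpf, so a difference there was set by that filter for these genes and nothing is read from the counts of calls. Between 1 dpf and 3 dpf the section difference changed towards A for 32 of 94 and towards B for 0 (34.0%, against 31.4% of all S. fontinalis genes), under the same filter. At the earlier stages 0 S. fontinalis members were higher and 2 lower in A at 0 hpf (2.13%, against 0.399% of S. fontinalis genes), 0 and 5 at 1 hpf (5.32%, against 4.08%), and 1 and 8 at 1 dpf (9.57%, against 5.69%).

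The S. fontinalis calls at 0 hpf were rab35b (-3.37) and rab4b (-2.73), and at 1 hpf rab18b, rab3db and rab20 were added. Each of these 5 symbols has an O. mykiss copy that was lower in A at all 4 stages. How reads that match both parental genomes were assigned is not given in the sources used here, so counts of an S. fontinalis identifier before 3 dpf may be O. mykiss reads, which was not tested. The 2 that were lower in A at 3 dpf were rab3db (-3.63) and rab20 (-2.45), a Rab of endosomes and phagosomes. S. fontinalis rab20 had 6.87 and 3.15 CPM in A at 3 dpf, against 34.6 and 20.5 CPM in B. In A at 1 dpf it had 3.52, 2.81 and 5.32 CPM, so at 3 dpf 3.15 CPM lay within that range and 6.87 CPM above it.

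By level in A at 3 dpf the leading S. fontinalis members were rab40c, sec31a, rab5aa LOC129830872, rab8a LOC129813563, copa LOC129813834, sec61a1a LOC129851061, rab11a LOC129841799 and rab5if. rab40c, a Rab that joins a ubiquitin ligase, had 66.7 and 101.6 CPM in A at 3 dpf, 14.9 and 19.0 CPM in B at 3 dpf, and 0.341 to 16.6 CPM at the earlier stages. It therefore had counts before 3 dpf. rab5aa LOC129830872, of early endosomes, had 58.9 and 56.5 CPM in A at 3 dpf and 0 in both B libraries, at least 110-fold higher in A than in B and at least 149-fold higher than in A at 1 dpf. This gene reaches 31 counts only in A at 3 dpf. Its fold bounds were therefore set by the filter named above, and nothing is read from them.

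S. fontinalis rab5if had 54.8 and 28.3 CPM in A at 3 dpf and no count in the other 18 libraries, at least 107-fold higher than in A at 1 dpf. It was 1 of 11 S. fontinalis members, and 0 O. mykiss members, without a count in those 18 libraries. The O. mykiss rab5if rose in the same libraries, as given above. S. fontinalis sec31a averaged 63.3 ± 1.57 CPM in A at 3 dpf (SD, n = 2) and 0.333 ± 0.471 CPM in B. Its O. mykiss counterpart was higher in A from 0 hpf on. S. fontinalis rab5if and sec31a also reach 31 counts only in A at 3 dpf. Their differences there, with the fold bound of rab5if, were set by the filter, and nothing is read from them.

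For 63 symbols present in both species, the S. fontinalis share of the summed counts of a symbol was computed in each library. In A at 3 dpf its median was 21.5% (middle 50% of symbols 10.5% to 35.9%, range 2.4% to 79.3%), against 26.3% over 5286 symbols, and in A at 1 dpf it was 0.832%. A symbol enters only with an S. fontinalis gene that reaches 31 counts in some library. Of the 94 members, 62 reach that only in A at 3 dpf. The difference in share between 1 dpf and 3 dpf was therefore set in part by that filter, and nothing is read from it. Highest was arf1, with 380 of 480 counts (79.2%, 95% exact interval 75.3% to 82.7%) and 185 of 233 (79.4%, 73.6% to 84.4%) in the 2 libraries. Part of these counts is of a gene that maps to arf1 and arf3a. Without it, an alternative chosen after seeing the data, arf1 had 246 of 346 counts (71.1%, 66.0% to 75.8%) and 114 of 162 (70.4%, 62.7% to 77.3%). rab5aa had 72.3% and 68.9%, where both S. fontinalis genes and the O. mykiss gene map to rab5aa and rab5ab, and sec61b had 72.2% and 67.5%.

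The lowest shares were those of rab27a, a Rab of secretory granules, with 5 of 259 counts (1.93%) and 8 of 279 (2.87%), rab20 with 3.37% and 1.67%, and rab3db with 3 of 54 (5.56%) and 0 of 22, where the 95% exact interval reaches 15.4%. All of these had vegetal O. mykiss copies called at all 4 stages. So did other symbols. By the mean of both libraries, rab15 (53.1% and 75.1%) and rab18b (39.7% and 31.2%) lay above the members' median of 21.5%. Below it lay rab6a (17.8% and 23.2%), rab35b, rab1ba, rab7a, rab11al, rab4b, sec22a and snx21 (4.59% and 4.93%). Whether the share goes with such copies was not tested. sec24d, with 5.16% and 2.26%, and snx7, with 4.98% and 3.38%, had no such copy and were low too. By role the median was 46.1% over the 4 translocon symbols (31.4% to 69.8%), 31.0% over 4 arf symbols, 24.6% over 5 COPI symbols and 11.1% over 6 COPII symbols. Copies per symbol differ between the species and reads are split by an unstated rule, so shares of different symbols are hard to compare. Shares of different libraries come under the filter named above. A few symbols had a share before 3 dpf: sec61a1a had 19.8%, 15.0% and 11.1%, and sar1b 16.9%, 15.6% and 20.4%, in A at 1 dpf.

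**Figure D5:**
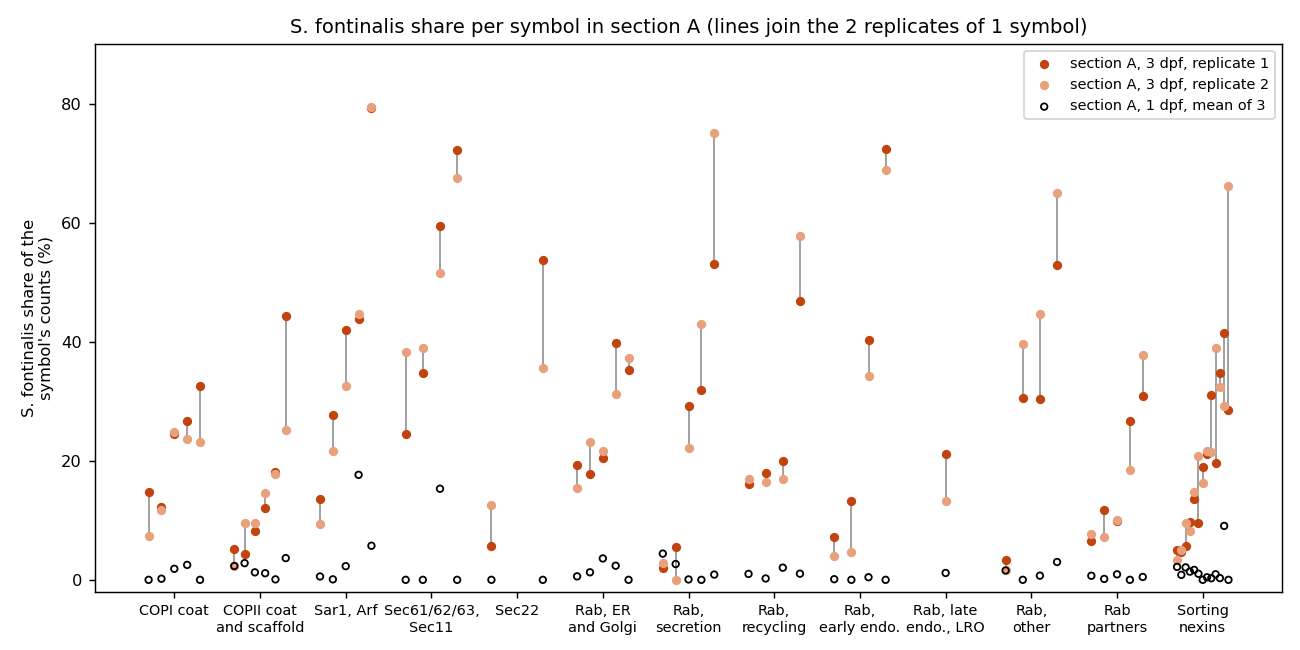
S. fontinalis share of the counts of each of 63 symbols in section A, in percent (vertical axis), grouped by role (horizontal axis); filled points are the 2 libraries of 3 dpf, joined by a line per symbol, and open circles the mean of the 3 libraries of 1 dpf. By the mean of the 2 libraries the shares at 3 dpf run from rab27a (1.93% and 2.87%) to arf1 (79.2% and 79.4%). The lowest single point is rab3db in replicate 2 (0.0%).

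Genes of the same pathways outside the families were counted from 6 lists, to be read against the shares of all O. mykiss genes called (5.41%, 24.3%, 28.1% and 42.3% at the 4 stages). Of the regulators 4.44%, 35.6%, 36.7% and 54.4% were called, of the tethers 6.45%, 50.0%, 50.0% and 30.6%, and of clathrin and adaptors 15.0%, 43.3%, 53.3% and 55.0%. Of SNAREs 10.3%, 23.1%, 30.8% and 51.3% were called, of retromer and ESCRT 6.25%, 37.5%, 39.6% and 62.5%, and of ER translocation 20.8%, 54.2%, 50.0% and 45.8%. Of 90 regulators of Rab and Arf GTPases, 2 were higher and 2 lower in A at 0 hpf, 22 and 10 at 1 hpf, 21 and 12 at 1 dpf, and 10 and 39 at 3 dpf. Copies of gdi2, which extracts Rabs from membranes, led the higher ones at 1 dpf (LOC110490378, 2.49, with means of 31.7 CPM in A and 5.58 CPM in B). tbc1d2b, a Rab GTPase activator, led the lower ones (-2.86, 29.9 and 218 CPM). Of 62 tethers, which catch vesicles at their target, 1 and 3, 27 and 4, 27 and 4, and 6 and 13 were higher and lower at the 4 stages in order, led at 1 dpf by vps41 LOC110535636 (1.85) and golga2 LOC110523594 (-1.63).

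Clathrin and its adaptors (60 genes) had 4 higher and 5 lower, 17 and 9, 18 and 14, and 13 and 20. Here too copies of a symbol split: at 1 dpf cltca LOC110533644, a clathrin heavy chain, was higher in A (1.95, means of 117 CPM in A and 30.1 CPM in B), and cltca LOC110536181 lower (-3.76, 64.2 and 871 CPM). Of 39 SNARE and fusion genes, 0 and 4, 4 and 5, 5 and 7, and 3 and 17 were called, led at 1 dpf by stx4 LOC110499141 (1.26) and stx8 LOC110493554 (-2.74). Of a list of 48 for retromer and ESCRT, which sort cargo on endosomes, 1 and 2, 10 and 8, 12 and 7, and 8 and 22 were called. The list also holds vps13a LOC110525386, a member of neither complex, which led the higher ones at 1 dpf (1.83). chmp1a LOC110494278 led the lower ones (-1.61).

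Genes of ER translocation and glycosylation, a list of 48 that also holds the COPI delta subunit arcn1a, were mostly lower in A where called, with 0 higher and 10 lower, 5 and 21, 3 and 21, and 5 and 17. At 1 dpf the copy named arcn1a was higher in A (1.67, means of 32.4 CPM in A and 10.2 CPM in B), and its other copy, LOC110507391, had 0.41 (adjusted p = 0.0674). ssr1 LOC110489704, a partner of the translocon, was lower (-2.33, 18.8 and 94.6 CPM), and in A it was higher at 3 dpf than at 1 dpf (2.10, means of 80.7 and 18.8 CPM). In A at 3 dpf against 1 dpf this list had 11 higher and 7 lower, against 9 and 50 for Rab and Arf regulators, 2 and 26 for tethers, 5 and 18 for clathrin and adaptors, 0 and 14 for SNAREs, and 4 and 18 for retromer and ESCRT. As shares called these are 37.5%, 65.6%, 45.2%, 38.3%, 35.9% and 45.8%, against 34.8% of all O. mykiss genes. The 3 dpf counts of these lists use the factors from both species, under which the median of all O. mykiss genes is at -0.33.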

How the data were processed

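Per the labels' protocols, total RNA was extracted from each section, cleared of yolk by lithium chloride and sequenced as strand-marking libraries after removal of ribosomal RNA. Per the submitters' processing notes, the tools were HTSeq 2.0.4, STAR 2.7.11, fastp 0.23.4 and, with no version, DESeq2. The genome builds, the strand setting and the treatment of reads that match several genes are not given in the sources used here, so no positions are printed. The values analysed are the authors' deposited raw counts per gene. The labels list 24 samples, of which 20 have a library here, and replicate 3 of both sections at 0 hpf and 3 dpf was not analysed here.

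All 20 libraries entered 1 fit of edgeR 4.0.16 (R 4.3.3; quasi-likelihood test, 1 mean for each group, TMM factors, expression filter), with Benjamini-Hochberg adjustment over 32502 genes and a threshold of 0.05; SE is the fold change over the root of F. Groups of 2 or 3 libraries share 1 estimate of the spread. CPM are the counts scaled to TMM-adjusted library size by edgeR. The 161 O. mykiss members were matched to the RefSeq gene table (USDA_OmykA_1.1), all as protein coding. Floors (3 counts) and 95% Clopper-Pearson intervals cover counting error only.

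Sections cut from the same egg share its number. Their deviations from the group means correlated at 0.478 to 0.736 (1 hpf), 0.388 to 0.656 (1 dpf), 0.476 (3 dpf) and -0.01 (0 hpf). Named genes are, per contrast, the 8 members with the largest change each way among those called, at or above the median level and without overlap, plus coats, sar1, arf, the leading S. fontinalis members and shares, and split copies. Members and lists were chosen with earlier results of these data known. Alternatives were DESeq2 1.42.0, other scaling factors, no filter, blocks and leaving out each library.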

Additional observations from a re-analysis of the deposited data

Results flagged for a closer look

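The difference between section A and section B changed between 1 dpf and 3 dpf, by edgeR's test of that change (adjusted p under 0.05), for 34 O. mykiss members (21.1%, against 15.6% of all O. mykiss genes) and for 32 S. fontinalis members (34.0%, against 31.4% of all S. fontinalis genes). Of the 94 S. fontinalis members, 62 reach the 31 counts of the filter named above only in A at 3 dpf. Nothing is read from the 32 calls. Among the members named by rule, the change in the log2 difference was -1.94 for rab8a LOC110524213, -1.75 for snx11 LOC110499128, -1.68 for snx18a, -1.57 for rab33ba LOC110505008, -1.54 for snx5 and -1.50 for rab4a LOC110499272, where a negative value means that A lost relative to B. It was 0.97 for sec61a1a LOC110528150, 1.04 for copb2, 1.37 for rab5if and 1.43 for snx6 LOC110505779. With scaling factors from O. mykiss genes alone these were -1.62, -1.43, -1.36, -1.25, -1.22 and -1.18, and 1.29, 1.36, 1.69 and 1.75, and all 10 stayed past the threshold. Groups of 2 or 3 libraries do not allow a test for a single library far from the others.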

How the results depend on the processing

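Of the counts of O. mykiss members called between the sections, that at 0 hpf (27) was 42 with DESeq2, 43 with the egg as a replicate block, and 6 to 29 when each library was left out in turn. The count for the change of the section difference (34) was 20 with O. mykiss factors, and 21 to 33 with a library left out (21 without A replicate 2 of 3 dpf). The counts of 0 between consecutive early stages were 2 with DESeq2 for A at 1 hpf against 0 hpf, and 11 with DESeq2 and 13 with the replicate number as a block for B at 1 hpf against 0 hpf. For B at 1 dpf against 1 hpf the count was 0 to 1 with a library left out (1 without B replicate 1 of 1 hpf). Replicate numbers did not pair different stages: same-numbered libraries of other stages correlated at -0.458 to 0.44. The other counts over all members of a species stayed within 1.5 times of their value under every alternative run, and the blocks changed no other count beyond that. The 3 section counts after 0 hpf ran from 55 to 64, 61 to 81 and 72 to 97 with a library left out. The coat genes higher in A at 0 hpf (1) were 0 with library totals, 3 with the egg block and 5 with DESeq2. Of 818 values of 74 named fold changes under the alternatives, 783 kept their direction and side of the threshold, 35 no longer passed it, and 0 reversed. At the level of abundant genes the ratio of the members' share called to the background fell to 2.45, 1.52, 1.52 and 1.24 at the 4 stages, against 3.11, 1.84, 1.81 and 1.39 over all genes, an alternative chosen after seeing the data. The cause of these moves was not tested. Depth limits the genes with few counts (snx33, rab34a, rab3ab, sec61b and S. fontinalis members before 3 dpf), and groups of 2 libraries limit 0 hpf and 3 dpf.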

Other observations

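Some members differed between the eggs of a stage. Eggs were compared after their values were seen, for members at or above the median level that differed at least 2-fold in both sections of 1 egg from both other eggs of that stage, and 4 O. mykiss members met this. How many of all O. mykiss genes meet the same rule was not counted, so the 4 are not read as a trait of the members. rab23, a Rab of cilia and Hedgehog signalling, had 34.1, 47.2 and 3.09 CPM in section A of eggs 1, 2 and 3 at 1 dpf, and 73.1, 99.3 and 4.13 CPM in section B. At the other stages rab23 had 3.14 to 4.52 CPM in all 4 libraries of 0 hpf, 32.1 to 85.8 CPM in all 6 of 1 hpf, and at 3 dpf 29.0 and 8.81 CPM in A and 95.5 and 4.33 CPM in B. The copy named rab34a had 12.7, 10.9 and 2.35 CPM in A and 13.2, 19.9 and 2.14 CPM in B of the same eggs, and sec11a LOC110506765, a signal peptidase subunit, had 4.36, 8.07 and 0.742 CPM in A and 24.9, 23.2 and 6.41 CPM in B. sec23a, an inner COPII subunit, had 63.7, 14.0 and 12.7 CPM in A and 36.8, 9.41 and 11.5 CPM in B of the 3 eggs at 1 hpf. In the 14 libraries of the other stages sec23a had 25.2 to 64.9 CPM. In rab23, rab34a and sec11a the low egg was egg 3 of 1 dpf, and in sec23a the high egg was egg 1 of 1 hpf. These values have no test.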
